A study of Mus musculus with 32 samples.

Results

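Heat shock genes and unfolded protein stress genes were followed through primary mouse astrocyte cultures that had received lipopolysaccharide, light, both or neither. The set holds 39 genes named by symbol out of 21878 symbols in the table. It has 3 arms, namely 15 heat shock genes of the cytosol and mitochondria, 15 genes of the endoplasmic reticulum (ER) unfolded protein response, and 9 genes of the ATF4 integrated stress response. Ddit3 stands in the table under 2 identifiers, so the 39 genes fill 40 of its 21899 rows. The second Ddit3 row, ENSMUSG00000116429, lies inside the first, was at 0 in all 32 libraries and was not tested. The other 39 rows passed the filter on low values in every comparison.

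The series holds 32 RNA-seq libraries in 8 groups of 4. The groups are Control at 4 h and 24 h, PBM (photobiomodulation, that is exposure to light) at 4 h and 24 h, LPS (lipopolysaccharide, a bacterial outer membrane component that is sensed by Toll-like receptor signalling) at 4 h and 24 h, and LPS+PBM at 4 h and 24 h. No source used here gives the wavelength or dose of the light, the dose of LPS, the strain or age of the mice, or whether the hours run from LPS or from light. The labels give replicate numbers but do not say that replicates are separate cultures, so p-values measure only the spread between these libraries, which may be technical.

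Cells refold damaged proteins through separate systems. In the cytosol, heat shock factor 1 switches on HSP70, HSP90, J-domain and small heat shock proteins when misfolded proteins build up. In the ER, the sensors IRE1, ATF6 and PERK respond to unfolded secretory and membrane proteins and raise chaperones such as BiP and GRP94. PERK and related kinases also phosphorylate the initiation factor eIF2, which slows translation while allowing the factor ATF4 to be made. ATF4 in turn drives amino acid synthesis genes, CHOP and a phosphatase subunit that ends the response. In astrocytes, αB-crystallin and HSP25 are well known small heat shock proteins that rise in reactive states.

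Stretches of promoter are printed here because the arms described below carry different known elements at their start sites. A RefSeq window on GRCm38.p6, from 250 bases before to 50 bases after a start, was at hand for 32 of the 39 genes. Hsp90aa1, Hsp90ab1, Hspa8, Hsf1, Cryab, Hyou1 and Atf6 had none. The ER stress element was searched on both strands as CCAAT, any 9 bases and CCACG. It was found in 6 of 13 ER genes (Hspa5, Calr, Hsp90b1, Canx, Pdia6 and Dnajc3), in 0 of 10 heat shock genes and in 0 of 9 ATF4 genes, against 0.119% of all 32851 windows. All sequences run 5′ to 3′ on the strand of the gene, and capitals mark the element on either strand. Hsp90b1 (chr10:86705508-86705681, minus strand) holds it at 2 places, and Calr (chr8:84847050-84847118, minus strand), Pdia6 (chr12:17266466-17266534, plus strand) and Hspa5 (chr2:34772000-34772068, plus strand) at 1 each.
Hsp90b1: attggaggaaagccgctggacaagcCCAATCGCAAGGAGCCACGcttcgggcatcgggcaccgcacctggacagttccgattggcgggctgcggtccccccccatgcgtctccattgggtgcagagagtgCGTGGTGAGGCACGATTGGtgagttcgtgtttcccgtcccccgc
Calr: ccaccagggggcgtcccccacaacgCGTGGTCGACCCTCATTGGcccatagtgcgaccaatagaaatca
Pdia6: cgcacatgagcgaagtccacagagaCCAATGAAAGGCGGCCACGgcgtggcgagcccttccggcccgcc
Hspa5: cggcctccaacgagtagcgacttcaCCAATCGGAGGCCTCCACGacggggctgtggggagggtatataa

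The heat shock element core, searched as GAANNTTC or TTCNNGAA, each of which reads as itself on the other strand, was found in 9 of 10 heat shock genes, in 0 of 13 ER genes and in 1 of 9 ATF4 genes (Asns), against 15.1% of all windows. Dnajb1 was the heat shock gene without it. Shown are Hspb1 (chr5:135887777-135887854, plus strand), which among the heat shock genes had the largest log2 change between the times in the LPS+PBM cultures, Hspa1b (chr17:34959310-34959367, minus strand) and Bag3 (chr7:128523600-128523632, plus strand) as genes of the inducible kind, and Hspe1 (chr1:55088034-55088101, plus strand). Hspe1 and Hspd1 are read outward from the same stretch, so the 3 overlapping cores seen there belong to both. Capitals mark the core.
Hspb1: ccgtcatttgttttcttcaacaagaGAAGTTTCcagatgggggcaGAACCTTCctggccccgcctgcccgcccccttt
Hspa1b: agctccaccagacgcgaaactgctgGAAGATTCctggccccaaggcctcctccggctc
Bag3: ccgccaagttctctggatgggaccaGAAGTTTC
Hspe1: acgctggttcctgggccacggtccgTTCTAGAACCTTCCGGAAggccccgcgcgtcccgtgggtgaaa
The composite core of ATF4 and C/EBP factors, TTGCATCA on either strand, was found in Chac1 and Herpud1 (0.895% of all windows). The XBP1 and ATF6 core TGACGTGG on either strand was found in none of the 32 genes (0.676% of all windows). A match is a description of these letters and not of binding.

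Values are FPKM (fragments scaled to transcript length and to the mapped total of the library), a scale on which different genes can be compared per length. The steps between low FPKM values of genes with 1 annotated transcript correspond to between 130759 and 143796 fragments per library, and 10136 to 10777 genes were above 0. Precision therefore differed with level. The median coefficient of variation within a group of 4 was 11.1% for groups with a mean of at least 100 FPKM, 30.3% between 20 and 100 FPKM, and 64.3% under 20 FPKM. Over all libraries, 13 of the 39 genes averaged at least 100 FPKM, 18 between 20 and 100 and 8 under 20. As many as 35 genes were above 0 in every library, and the other 4 (Hspa1a, Sdf2l1, Trib3 and Chac1) were at 0 in 4 to 12 libraries. Markers of the labelled cell type were present at modest levels beside those of other cells. The 10 astrocyte markers summed to 129 to 435 FPKM per library, with Gfap at 16.4 to 89.0 FPKM and S100b at 0 in 24 of 32 libraries. The 8 fibroblast and meningeal markers summed to 2440 to 4441 FPKM. The 10 endothelial and mural markers summed to 935 to 2116 FPKM and the 14 microglial markers to 229 to 626 FPKM. Fn1, Col1a2, Col1a1 and Col3a1, with medians of 1506, 701, 525 and 368 FPKM, made up most of the fibroblast and meningeal sum (median 3294 FPKM). Dcn and Postn had medians of 140 and 26.1 FPKM, and Lum and Pdgfra were at 0 in 7 and 10 libraries. Most of the endothelial and mural sum (median 1597 FPKM) came from Acta2 and Tagln, with medians of 958 and 548 FPKM. The endothelial markers on that list were low or absent, with Pecam1 at 0 in 29 of 32 libraries and Cldn5 at 0 in all 32. Oligodendrocyte lineage markers summed to 27.9 to 76.3 FPKM with Mog and Mag at 0 throughout, and neuronal markers to 24.4 to 129 FPKM with Rbfox3 and Snap25 at 0 throughout. In such bulk RNA, fewer cells of a type and less RNA per cell cannot be told apart.

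The clearest movement in these genes lay between 4 h and 24 h, and it lay mostly in ER folding genes. Summed over the 15 ER genes, the FPKM was 2156 ± 124 (SD, n = 4) at 4 h and 2686 ± 115 at 24 h in Control, 2302 ± 61.9 and 2667 ± 153 in PBM, 2116 ± 48.0 and 2964 ± 159 in LPS, and 2033 ± 97.0 and 3094 ± 103 in LPS+PBM. All 4 libraries at 24 h lay above all 4 at 4 h in each treatment. The 15 heat shock genes summed to between 2467 FPKM (LPS at 4 h) and 2935 FPKM (PBM at 4 h) as group means, and the 4 h and 24 h libraries overlapped in Control, PBM, LPS and LPS+PBM. The 9 ATF4 genes summed to group means of 380.0 to 455 FPKM, again with overlap between the times in each treatment. These sums are dominated by the most abundant genes and were not tested.

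**Figure D1:**
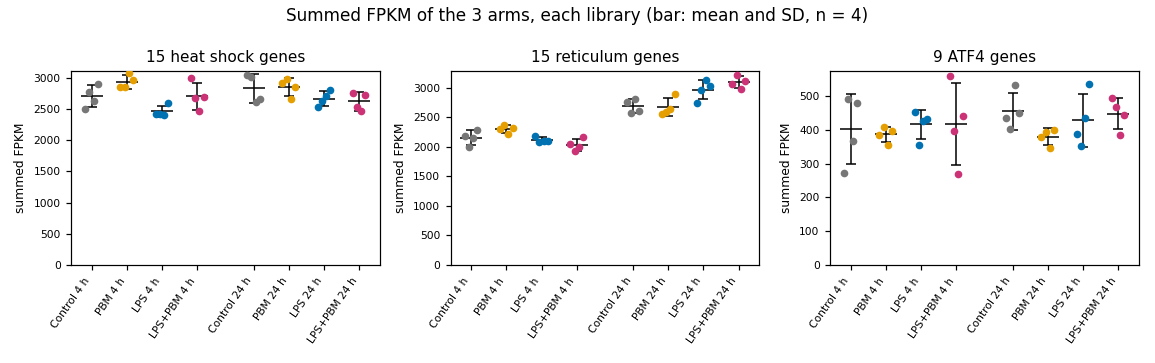
Summed FPKM of the 15 heat shock, 15 ER and 9 ATF4 genes in each of the 32 libraries (points), with the group mean and SD (bar, n = 4) for each of the 8 groups on the horizontal axis. The ER sums are higher at 24 h than at 4 h in every treatment, without overlap, while the heat shock and ATF4 sums overlap between the times.

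Each gene was then tested with limma on log2(FPKM + 1), with p-values adjusted over all tested genes (Benjamini-Hochberg) and a call at an adjusted p under 0.05. Fold changes are given on that log2 scale, which understates the change of low genes. Between the times, Control called 3 of the 39 genes, all higher at 24 h (Hspa8, Hsp90b1 and Pdia6), where 1.11% of all 13937 genes were called and 0.596% were called higher. PBM called 1, Calr, also higher (1.05% of all genes called, 0.509% higher). LPS called 6, all higher (Hspa8, Hsp90b1, Calr, Pdia6, Pdia3 and Hyou1), against 1.33% of all genes called and 0.531% called higher. LPS+PBM called 11, of which 8 were higher (Hsp90b1, Calr, Pdia3, Pdia6, Hyou1, Pdia4, Sdf2l1 and Hspa8) against 1.33% of all genes, and 3 were lower (Hspb1, Cryab and Dnajb1) against 1.68%. The share of all genes called in LPS+PBM, in either direction, was 3.01%. At an unadjusted p under 0.05, the counts were 8 in Control (9.66% of all genes), 9 in PBM (9.44%), 13 in LPS (11.6%) and 17 in LPS+PBM (14.1%). Without 6 libraries whose columns stand out of group order in the table, the LPS count was 2 (Hspa8 and Pdia6), and with only the compared groups in the fit the counts were 1 in Control, 0 in PBM and 7 in LPS+PBM. The time and the culture run cannot be told apart in these comparisons, because the labels give no run.

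Of the 15 ER genes, 2 were called in Control, 1 in PBM, 5 in LPS and 7 in LPS+PBM, all higher at 24 h. Of all genes, 0.596%, 0.509%, 0.531% and 1.33% were called higher, in the same order. The median log2 change of the 15 ER genes was 0.25 in Control, 0.05 in PBM, 0.54 in LPS and 0.38 in LPS+PBM. The median over all genes tested was 0.00 in each treatment. Of the 15 heat shock genes, Hspa8 alone was called in Control and in LPS, none in PBM, and Hspa8, Hspb1, Cryab and Dnajb1 in LPS+PBM. Their medians were -0.13, -0.12, 0.01 and -0.08 in the same order. None of the 9 ATF4 genes was called between the times, by limma or by limma-voom on approximate fragments. At an unadjusted p under 0.05 there were 0, 0, 2 and 2 of them, beside 9.66%, 9.44%, 11.6% and 14.1% of all genes.

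**Figure D2:**
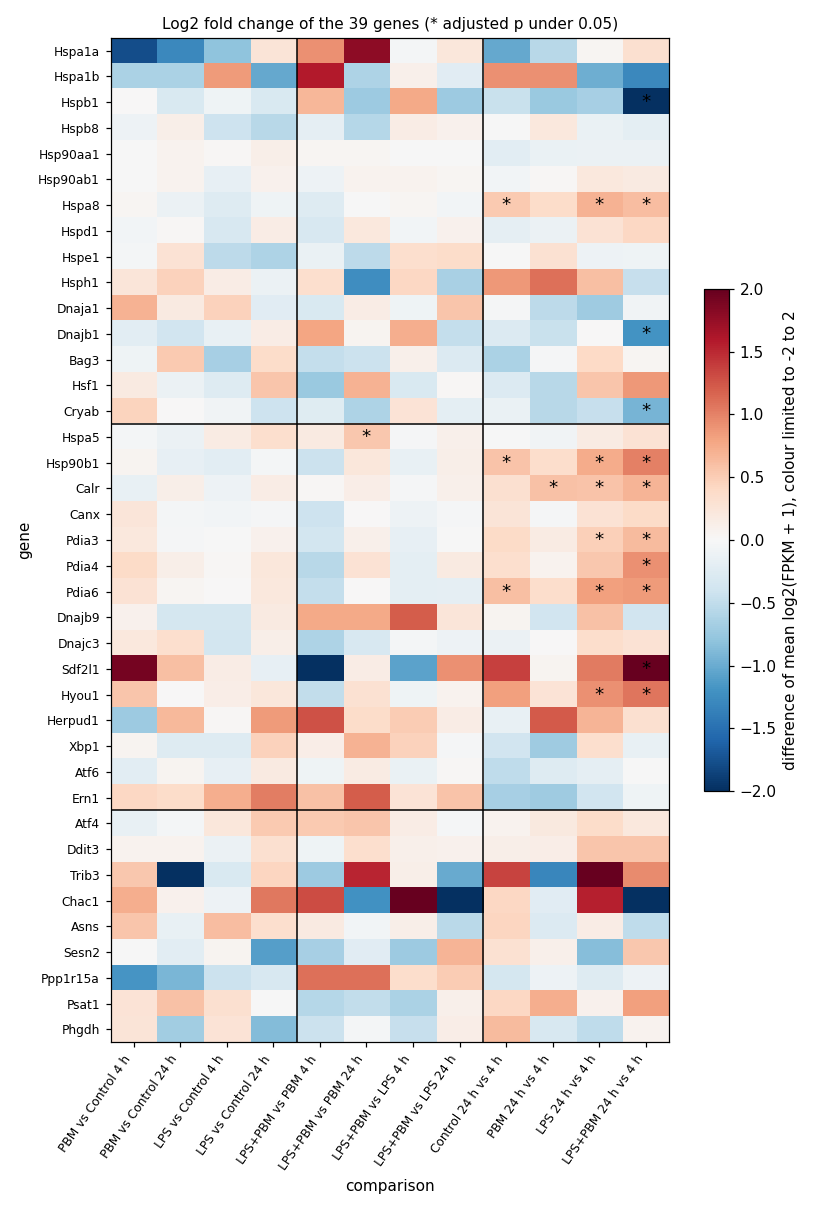
Difference of mean log2(FPKM + 1) of the 39 genes (vertical axis, with lines between the heat shock, ER and ATF4 arms) in 12 comparisons (horizontal axis), red for higher and blue for lower in the first-named group, with colour limited to -2 to 2. Stars mark an adjusted p under 0.05, and 21 of the 22 stand in the 4 comparisons of 24 h with 4 h, the other being Hspa5 in LPS+PBM against PBM at 24 h.

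Hsp90b1 (chromosome 10, 86690209 to 86705509 on mm10, minus strand) encodes GRP94, the HSP90 of the ER, and its promoter is the one printed above with 2 elements. At 4 h its FPKM values per library were Control 333, 286, 402 and 408, PBM 367, 359.6, 358 and 392, LPS 315, 258, 277 and 380.0, LPS+PBM 311, 253, 254 and 283. At 24 h they were Control 513, 480.0, 536 and 574, PBM 460.3, 469.8, 467 and 479, LPS 425, 501, 551 and 571, LPS+PBM 589, 591, 507 and 519. Every 24 h library lay above every 4 h library of its own treatment. At 24 h the LPS+PBM libraries also lay above the PBM libraries without overlap, a difference that was not called. The log2 rise was 0.57 ± 0.12 (SE) in Control (limma adjusted p = 0.0082), 0.74 ± 0.12 in LPS (adjusted p = 0.000238) and 1.00 ± 0.12 in LPS+PBM (adjusted p = 1.25e-06). In PBM the difference was 0.35 ± 0.12 and was not called (adjusted p = 0.227). Without Control 4 h replicate 2, the lowest of its group, the Control call was lost (log2 difference 0.47, adjusted p = 0.0501). An unprocessed pseudogene, 1810014B01Rik, overlaps Hsp90b1 on the other strand over 4598 bases, and whether the counting used strand is not given in the sources used here.

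Calr (chromosome 8, 84841850 to 84846934, minus strand) encodes calreticulin, a calcium-binding chaperone for glycoproteins. Its 4 h values were Control 414, 413, 348 and 428, PBM 330.0, 384, 357 and 379, LPS 381, 379, 379 and 356, LPS+PBM 358, 385, 355 and 379 FPKM. Its 24 h values were Control 493, 579, 467 and 469, PBM 467, 521, 570.2 and 626, LPS 546, 552, 521 and 601, LPS+PBM 527, 599, 652 and 598 FPKM. The times did not overlap in any treatment. Calr rose by 0.58 ± 0.10 in PBM (limma adjusted p = 0.000431), 0.57 ± 0.10 in LPS (adjusted p = 0.000439) and 0.68 ± 0.10 in LPS+PBM (adjusted p = 2.4e-05). The difference in Control was 0.32 ± 0.10 and was not called (adjusted p = 0.112). Canx, its membrane-bound partner calnexin, averaged 255 FPKM over all libraries and was not called in any treatment, with differences from -0.03 in PBM to 0.38 in LPS+PBM (adjusted p = 0.0733).

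The disulfide isomerases Pdia3, Pdia6 and Pdia4, which form and shuffle disulfide bonds in the ER, had higher means at 24 h in all 4 treatments. For Pdia3 the values per library at 4 h were Control 326, 278, 334 and 322, PBM 394, 382, 376 and 306, LPS 292, 301, 323 and 339, LPS+PBM 264, 288, 283 and 291 FPKM, and at 24 h Control 399.6, 363, 468 and 422, PBM 414, 355, 423 and 438, LPS 443, 492, 421 and 403, LPS+PBM 424, 495, 398 and 440.3 FPKM. LPS and LPS+PBM did not overlap between the times, and neither did Control, whereas PBM did. Pdia3 rose by 0.48 ± 0.10 in LPS (limma adjusted p = 0.00776) and 0.64 ± 0.10 in LPS+PBM (adjusted p = 0.000183), beside 0.39 ± 0.10 in Control (adjusted p = 0.0595) and 0.16 ± 0.10 in PBM (adjusted p = 0.669).

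Pdia6 stood at Control 105, 144, 139.7 and 132, PBM 159.6, 129.8, 189 and 157, LPS 115, 125, 153 and 129, LPS+PBM 126, 78.8, 136 and 119 FPKM at 4 h. The 24 h values were Control 225, 191, 194 and 183, PBM 186, 219.6, 204 and 200.3, LPS 241, 238, 232 and 209.8, LPS+PBM 188, 229.7, 164 and 240.3 FPKM. The times overlapped in PBM, where 1 library at 4 h exceeded 1 at 24 h, and not in the other treatments. Pdia6 rose by 0.82 ± 0.16 in LPS (limma adjusted p = 0.0022) and 0.84 ± 0.16 in LPS+PBM (adjusted p = 0.0011). The Control rise of 0.61 ± 0.16 lay at the threshold (adjusted p = 0.049), and it missed the threshold without any 1 of the 8 Control libraries (adjusted p from 0.0507 to 0.211). Pdia4 at 4 h was at Control 87.1, 66.7, 136 and 98.9, PBM 144, 106, 136 and 110.2, LPS 98.6, 89.8, 103 and 92.6, LPS+PBM 86.9, 112, 67.8 and 73.1 FPKM, and at 24 h at Control 164, 119, 113 and 92.4, PBM 146, 137, 85.5 and 163, LPS 158, 117, 165 and 125, LPS+PBM 147, 183, 151 and 151 FPKM. It rose by 0.91 ± 0.21 in LPS+PBM (limma adjusted p = 0.0099). It differed by 0.54 ± 0.21 in LPS (adjusted p = 0.265), 0.34 ± 0.21 in Control and 0.07 ± 0.21 in PBM. The Pdia4 values did not overlap between the times in LPS+PBM or in LPS, and did in Control and PBM.

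Hyou1, an ER relative of HSP70 that recharges BiP with nucleotide, was at Control 33.7, 55.1, 48.0 and 48.5, PBM 71.2, 84.0, 46.7 and 73.5, LPS 43.5, 47.4, 55.7 and 56.1, LPS+PBM 46.7, 34.0, 49.0 and 64.9 FPKM at 4 h. At 24 h it was at Control 90.9, 79.6, 93.3 and 63.8, PBM 73.4, 72.1, 76.5 and 108, LPS 98.0, 69.9, 126 and 96.0, LPS+PBM 90.3, 134, 102 and 82.6 FPKM. Only the PBM cultures overlapped between the times. Hyou1 rose by 1.07 ± 0.23 in LPS+PBM (limma adjusted p = 0.00473) and by 0.91 ± 0.23 in LPS (adjusted p = 0.0356), beside 0.82 ± 0.23 in Control (adjusted p = 0.0832) and 0.27 ± 0.23 in PBM (adjusted p = 0.792). The LPS call was lost without LPS 4 h replicate 1, 2, 3 or 4 or LPS 24 h replicate 1, 3 or 4 (adjusted p from 0.0509 to 0.137).

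Sdf2l1, a partner of BiP and its J-domain proteins, rested on few fragments. Its values at 4 h were Control 0, 6.57, 6.53 and 12.6, PBM 19.9, 19.1, 13.4 and 25.1, LPS 0, 18.8, 6.78 and 6.68, LPS+PBM 6.72, 6.72, 0 and 0 FPKM. Those at 24 h were Control 13.7, 6.31, 20.3 and 13.8, PBM 44.2, 13.2, 13.2 and 18.9, LPS 6.33, 26.1, 6.63 and 13.2, LPS+PBM 13.6, 25.1, 25.2 and 26.2 FPKM. It was called in LPS+PBM, with 2 inferred fragments in the 4 libraries at 4 h and 14 at 24 h, a ratio of 6.86 with an exact 95% interval of 1.58 to 62.2 that covers counting error only. The limma log2 difference was 3.04 ± 0.79 (adjusted p = 0.0264), and it was not called without LPS+PBM 4 h replicate 3 or 4 or LPS+PBM 24 h replicate 2, 3 or 4 (adjusted p from 0.0661 to 0.114) or with a pseudocount of 0.1 (adjusted p = 0.067).

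**Figure D3:**
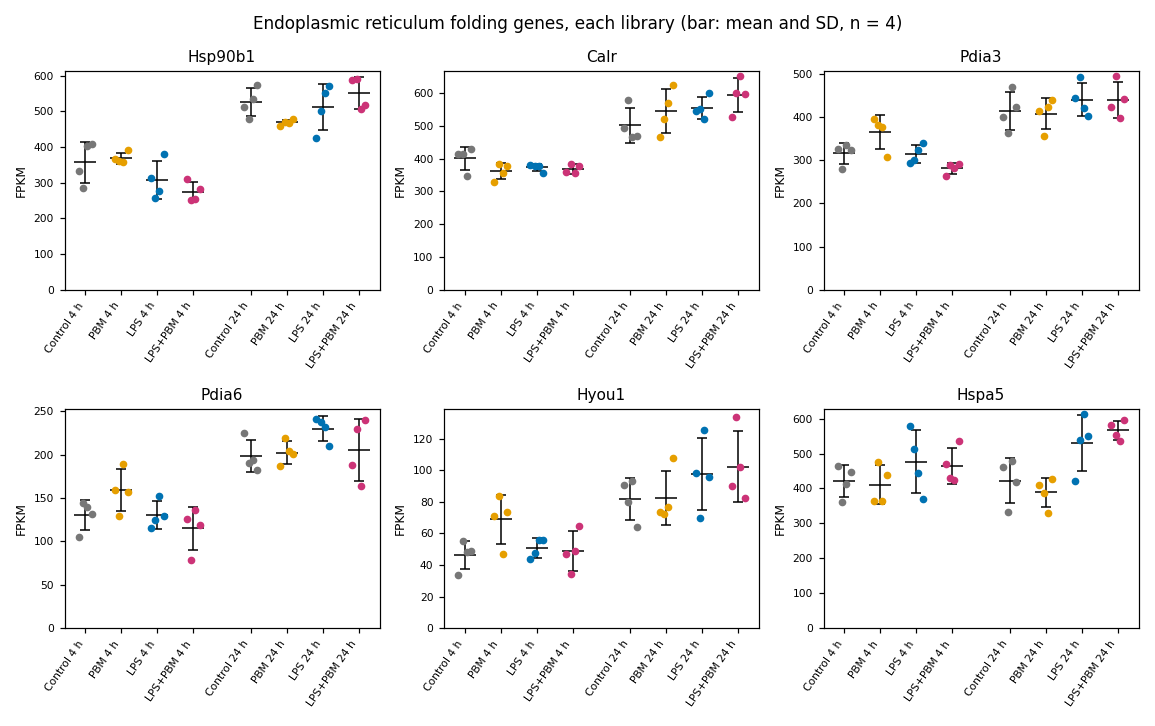
FPKM of Hsp90b1, Calr, Pdia3, Pdia6, Hyou1 and Hspa5 in each library (points) of the 8 groups, with the group mean and SD (bar, n = 4). Hsp90b1 and Calr separate the 24 h from the 4 h libraries in every treatment, and Hspa5 and Hsp90b1 separate LPS+PBM from PBM at 24 h.

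Hspa5 (chromosome 2, 34771970 to 34777547, plus strand) encodes BiP, the HSP70 of the ER and the usual readout of the unfolded protein response. At 4 h its libraries read Control 465, 362, 414 and 446, PBM 365, 476, 363 and 439.9, LPS 580.0, 514, 445 and 369, LPS+PBM 469.8, 429, 424 and 536 FPKM. At 24 h they read Control 462, 333, 478 and 418, PBM 411, 387, 331 and 428, LPS 421, 539.8, 613 and 549.5, LPS+PBM 581, 552, 535 and 596 FPKM. The 4 LPS+PBM libraries at 24 h lay above the 4 PBM libraries, and LPS overlapped with Control. Hspa5 was the only member called for LPS at either time with the settings used throughout, at 0.55 ± 0.13 in LPS+PBM against PBM at 24 h (limma adjusted p = 0.025), beside 0.33 ± 0.13 in LPS against Control at 24 h (adjusted p = 0.257). The difference between these LPS effects was 0.22 (95% interval -0.17 to 0.60, adjusted p = 0.912). The call was lost without PBM 24 h replicate 2 or 3 or LPS+PBM 24 h replicate 1, 2 or 4 (adjusted p from 0.0545 to 0.0949), and with quantile normalization (log2 difference 0.40, adjusted p = 0.142). With quantile normalization the members called in this comparison were instead Cryab at -0.70 (adjusted p = 0.048) and Hsph1 at -1.29 (adjusted p = 0.0436), and Hsph1 also took the place of Hspa5 without PBM 24 h replicate 3 or LPS+PBM 24 h replicate 1 (adjusted p = 0.0314 and 0.0243). Between the times Hspa5 was not called, with differences from -0.08 in PBM to 0.29 in LPS+PBM.

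Cell type markers differed between the same PBM and LPS+PBM libraries at 24 h. The fibroblast and meningeal sum was 3988 to 4441 FPKM in PBM and 3153 to 3624 in LPS+PBM, with Col1a1, Col1a2 and Fn1 of the 8 called lower in LPS+PBM and Dcn called higher. The microglial sum was 479 to 626 FPKM in PBM and 229 to 428 in LPS+PBM, with Tmem119, C1qb and C1qc called lower. The astrocyte sum was 213 to 315 and 129 to 190.0 FPKM, with Glul called lower, and the endothelial and mural sum was 1421 to 1832 and 935 to 1264 FPKM, with Acta2 called lower. All 4 sums were lower in LPS+PBM without overlap, and none of the neuronal or oligodendrocyte lineage markers tested was called. The part of these differences in the Hspa5 call was not tested.

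The remaining ER genes were less abundant and none was called in any comparison. The stress sensors Atf6 and Ern1 (IRE1) averaged 11.8 and 11.9 FPKM over all libraries. Xbp1, whose transcript IRE1 splices, averaged 39.6 FPKM, and the gene-level values do not separate its spliced form. The J-domain proteins Dnajb9 and Dnajc3, which work with BiP, averaged 27.9 and 33.4 FPKM, and Herpud1, a component of ER-associated degradation, averaged 29.5 FPKM. Dnajb9 had its highest group mean in LPS+PBM at 4 h, 44.4 ± 12.7 FPKM against 20.0 ± 10.1 in LPS (log2 difference 1.21, limma adjusted p = 0.452).

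In the cytosolic arm, 1 constitutive chaperone gene was higher at 24 h in every treatment, and was called in Control, LPS and LPS+PBM. Hspa8 (chromosome 9, 40800984 to 40810087, plus strand) encodes HSC70, the constitutive HSP70 of the cytosol. Its 4 h values per library were Control 551, 547, 562 and 531, PBM 525, 539, 624 and 564, LPS 425, 427, 475 and 516, LPS+PBM 526, 411, 401 and 563 FPKM. At 24 h they were Control 889.9, 734, 755 and 797, PBM 756, 749, 692 and 712, LPS 706, 687, 804 and 789, LPS+PBM 779.7, 703, 668 and 737 FPKM. No 24 h library fell within the range of the 4 h libraries of its treatment. Hspa8 rose by 0.53 ± 0.10 in Control (limma adjusted p = 0.00201), 0.70 ± 0.10 in LPS (adjusted p = 2.95e-05) and 0.62 ± 0.10 in LPS+PBM (adjusted p = 0.000138), and its difference in PBM was 0.37 ± 0.10 (adjusted p = 0.0565). In PBM, Hspa8 was called by limma with library weights (0.37, adjusted p = 0.0469) and with quantile normalization (0.42, adjusted p = 0.0166). It was also called there by limma-voom (0.39, adjusted p = 0.0131) and by limma without PBM 4 h replicate 3 (0.42, adjusted p = 0.0425). Small nucleolar RNA genes lie in the introns of Hspa8 on the same strand.

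Neither HSP90 gene of the cytosol was called in any comparison. Hsp90ab1, the constitutive form, had 4 h values of Control 587, 742, 600.3 and 651, PBM 678, 622, 596 and 666, LPS 564, 673, 495 and 570.0, LPS+PBM 606, 666, 519 and 609.8 FPKM. Its 24 h values were Control 608, 646, 628 and 592, PBM 657, 645, 616 and 667, LPS 709.7, 578, 624 and 737, LPS+PBM 684, 685, 698 and 639.5 FPKM. Its groups overlapped in every comparison, and its largest difference between the times was 0.20 ± 0.09 in LPS (limma adjusted p = 0.384). Hsp90aa1, the more stress-responsive form, had group means from 262 to 311 FPKM. Its Control libraries were lower at 24 h without overlap, at -0.21 ± 0.11 (adjusted p = 0.578).

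Between the times the small heat shock protein genes Hspb1 and Cryab went the other way in LPS+PBM. Hspb1 (chromosome 5, 135887919 to 135889563, plus strand) encodes HSP25, and its promoter is printed above with 2 heat shock cores. At 4 h it was at Control 82.7, 48.4, 104 and 108, PBM 65.2, 85.9, 82.3 and 99.9, LPS 95.3, 115, 66.6 and 49.2, LPS+PBM 99.0, 165, 156 and 117 FPKM. At 24 h it was at Control 67.2, 69.7, 41.5 and 67.8, PBM 69.7, 32.3, 32.5 and 77.3, LPS 85.4, 55.9, 48.4 and 24.2, LPS+PBM 33.3, 23.1, 38.7 and 24.1 FPKM. In LPS+PBM the lowest 4 h library exceeded the highest 24 h library, while the times overlapped in the other treatments. Hspb1 fell in LPS+PBM, with a log2 change of -2.13 ± 0.34 (limma adjusted p = 0.000147). The changes in Control, PBM and LPS were -0.44, -0.74 and -0.66 (adjusted p = 0.752, 0.476 and 0.454).

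Cryab (chromosome 9, 50751325 to 50756636, plus strand) encodes αB-crystallin. Its 4 h values were Control 442, 558, 408 and 521, PBM 659, 546, 652 and 759.6, LPS 482, 335, 486 and 538, LPS+PBM 663, 561, 549 and 437 FPKM. Its 24 h values were Control 504, 559, 309 and 421, PBM 496, 492, 403 and 388, LPS 270.3, 371, 371 and 316, LPS+PBM 287, 345, 220.4 and 313 FPKM. The LPS+PBM and PBM libraries did not overlap between the times, and those of Control and LPS did. Cryab fell in LPS+PBM by a log2 change of -0.92 ± 0.17 (limma adjusted p = 0.00117), beside -0.56 in PBM (adjusted p = 0.148), -0.46 in LPS (adjusted p = 0.239) and -0.13 in Control (adjusted p = 0.909). Hspb2 overlaps it on the other strand over 1030 bases. Dnajb1, a J-domain partner of HSP70, stood at Control 24.9, 34.0, 38.6 and 39.6, PBM 31.9, 33.0, 39.7 and 17.1, LPS 26.3, 32.5, 45.2 and 22.2, LPS+PBM 62.2, 54.7, 32.1 and 63.2 FPKM at 4 h and at Control 20.2, 42.0, 30.0 and 23.0, PBM 25.7, 26.8, 15.4 and 18.6, LPS 30.4, 38.5, 44.1 and 17.0, LPS+PBM 15.1, 30.2, 25.6 and 19.4 FPKM at 24 h. It fell in LPS+PBM without overlap, with a change of -1.20 ± 0.33 (adjusted p = 0.0396), and was lost without LPS+PBM 4 h replicate 1, 2 or 4 or LPS+PBM 24 h replicate 1, 3 or 4 (adjusted p from 0.0563 to 0.142).

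Whether these falls were larger in LPS+PBM than in other cultures was tested as a difference of time changes, in 2 comparisons added after the values had been seen. Against Control, 0 of the 39 genes were called by limma or by limma-voom (0.868% of all genes by limma), with 8 at an unadjusted p under 0.05 (9.99% of all genes). The differences were -1.70 ± 0.48 for Hspb1 (adjusted p = 0.0986), -0.80 ± 0.24 for Cryab (adjusted p = 0.149) and -0.92 ± 0.47 for Dnajb1 (adjusted p = 0.521). The ER genes Hsp90b1 and Calr differed by 0.43 ± 0.17 and 0.36 ± 0.14 (adjusted p = 0.334 and 0.312). Against LPS alone, 0 of 39 were called by either tool (0% of all genes by limma), with 5 at an unadjusted p under 0.05 (6.34%), among them Hspb1 at -1.48 ± 0.48 (adjusted p = 0.56). No member passed the test of either difference.

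Marker lists of other cells moved between the same libraries. The 8 fibroblast and meningeal markers summed to 3232 to 3537 FPKM at 4 h and 3719 to 4054 at 24 h in Control, 2895 to 3319 and 3988 to 4441 in PBM, 2440.0 to 3049.6 and 3332 to 3875 in LPS, and 2537 to 2878 and 3153 to 3624 in LPS+PBM, so that the times did not overlap in any treatment. Of the 8, 1 was called higher at 24 h in Control, 3 in PBM, 2 in LPS and 3 in LPS+PBM, and none was at 0 in all libraries. Pdgfra is also on the oligodendrocyte lineage list. The 10 astrocyte markers summed to 276 to 352 FPKM at 4 h and 129 to 190.0 at 24 h in LPS+PBM, where Gfap, Glul and Sox9 were called lower. In Control the same sum was 210.4 to 371 and 313 to 435 FPKM. The 10 endothelial and mural markers, of which Cldn5 was at 0 in all libraries, summed to 1746 to 2116 FPKM at 4 h and 1630.1 to 1719 at 24 h in Control, 1564 to 2071 and 1073 to 1115 in LPS, and 1444 to 1942 and 935 to 1264 in LPS+PBM, each lower at 24 h without overlap, while the times overlapped in PBM (1594 to 2081 and 1421 to 1832). Acta2 and Flt1 were called lower at 24 h in LPS and in LPS+PBM, and none of the 8 tested was called in Control or PBM. The part of these shifts in the rise of the ER genes and in the fall of Hspb1 and Cryab was not tested.

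**Figure D4:**
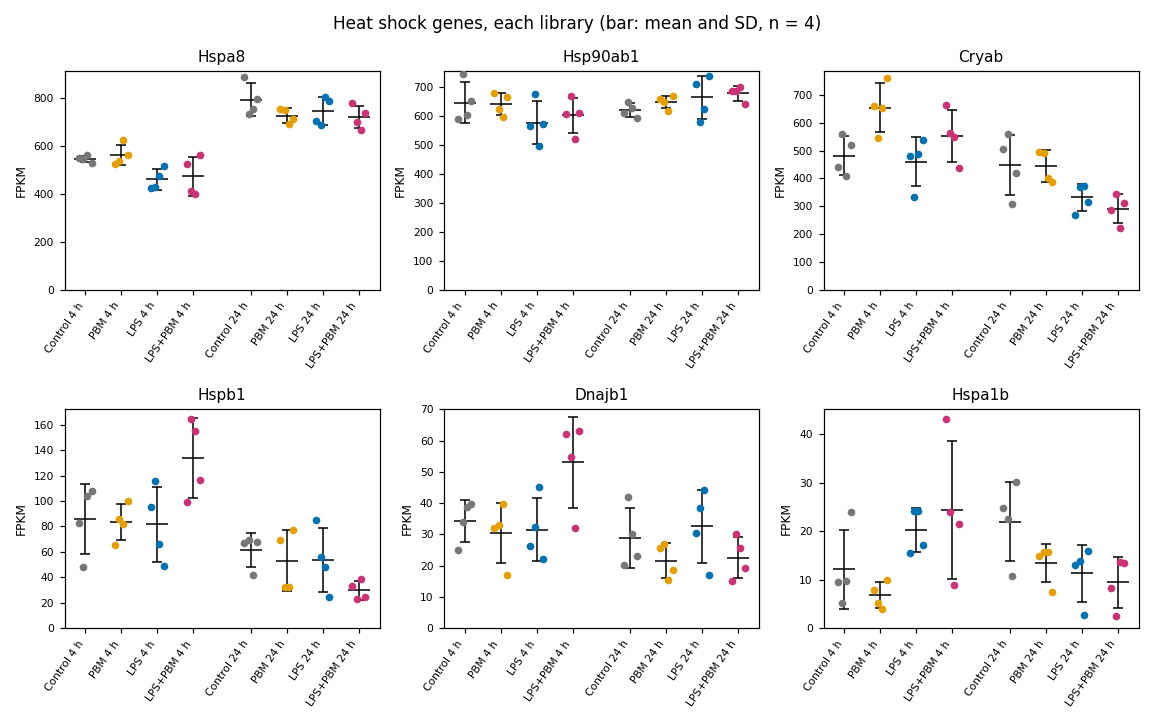
FPKM of Hspa8, Hsp90ab1, Cryab, Hspb1, Dnajb1 and Hspa1b in each library (points) of the 8 groups, with the group mean and SD (bar, n = 4). Hspa8 is higher at 24 h in every treatment, Hsp90ab1 overlaps throughout, and Hspb1, Cryab and Dnajb1 run from their upper range at 4 h to their lower range at 24 h in LPS+PBM.

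The strictly inducible heat shock genes were low. Hspa1b averaged 15.0 FPKM and ranged from 2.48 to 43.2 FPKM, and Hspa1a averaged 4.95 FPKM and was at 0 in 11 of 32 libraries. These 2 genes are near-identical, so fragments may have been split between them, and Gm20481 overlaps Hspa1a on the other strand. Hspa1b means at 4 h were 12.1 ± 8.17 in Control, 6.75 ± 2.66 in PBM, 20.2 ± 4.60 in LPS and 24.4 ± 14.2 in LPS+PBM. Its difference between LPS+PBM and PBM at 4 h was 1.59 ± 0.50 (limma adjusted p = 0.111), and its difference between PBM and Control was -0.64 ± 0.50 (adjusted p = 0.959). The co-chaperone Bag3 averaged 46.2 FPKM, the HSP110 gene Hsph1 67.1, the small heat shock protein Hspb8 83.8, the mitochondrial chaperonin genes Hspe1 and Hspd1 99.1 and 144, and Hsf1, the factor itself, 19.2 FPKM. With the settings used throughout, none of them was called in any comparison. In PBM, Hsph1 was 53.2 ± 20.2 FPKM at 4 h and 116 ± 42.1 at 24 h. It was called there without PBM 24 h replicate 3 (log2 difference 1.34, limma adjusted p = 0.0454) or without PBM 4 h replicate 3 (1.34, adjusted p = 0.0472). Hspa1b was called in LPS+PBM against PBM at 4 h without LPS+PBM 4 h replicate 3 (1.98, adjusted p = 0.0411).

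Light alone called none of the 39 genes. At 4 h, PBM against Control gave 0 calls by limma or limma-voom (0.0453% of all 13247 genes by limma) and 4 genes at an unadjusted p under 0.05 (5.28% of all genes). At 24 h it gave 0 calls by either tool (0.113%) and 3 at an unadjusted p under 0.05 (5.95%). The median log2 change of the 39 was 0.06 at 4 h and 0.01 at 24 h, and that of all genes was 0.00 at both. Over the 13 genes at 100 FPKM or more, the 95% intervals at 24 h ran from -0.39 (Hspa5) to 0.73 (Dnaja1), and 12 of the 13 stayed within a fold of 1.5 either way. At 4 h they ran from -0.41 (Hspd1) to 1.14 (Dnaja1), with 9 of 13 within that fold. Dnaja1, a J-domain partner of HSP70, was at 169, 191, 166 and 162 FPKM in PBM and at 86.6, 91.2, 120.2 and 132 in Control at 4 h. These did not overlap, at a difference of 0.69 ± 0.21 (limma adjusted p = 0.759). At 24 h Hsp90b1 was lower in PBM without overlap, 469 ± 7.83 against 526 ± 39.6 FPKM (-0.16 ± 0.10, adjusted p = 0.888). Smu1 overlaps Dnaja1 on the other strand over 608 bases.

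Light on top of LPS gave the same count. LPS+PBM against LPS called 0 of 39 at 4 h by limma or limma-voom (0% of all genes by limma), with 4 at an unadjusted p under 0.05 (7.53%), and 0 at 24 h by either tool (0.00753%), with 2 at an unadjusted p under 0.05 (5.14%). The median log2 change of the 39 was 0.03 and 0.04, beside -0.02 and 0.00 over all genes. Hspb1 at 4 h was 134 ± 31.4 FPKM with light and 81.6 ± 29.5 without, a difference of 0.75 ± 0.29 (adjusted p = 0.538). Over the 13 abundant genes at 24 h, the 95% intervals ran from -0.56 (Cryab) to 1.11 (Dnaja1), and 11 of 13 stayed within a fold of 1.5.

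LPS itself called 0 or 1 of the 39 genes in a comparison, beside 2.23% to 2.7% of all genes. LPS against Control called 0 of 39 at 4 h by limma or limma-voom (2.23% of all genes by limma), with 3 at an unadjusted p under 0.05 (12.1%). At 24 h it called 0 by either tool (2.56%), with 7 at an unadjusted p under 0.05 (13.3%). The same contrast under light, LPS+PBM against PBM, shares no library with it. It called 0 at 4 h by either tool (2.63%), with 13 at an unadjusted p under 0.05 (14.2%), and 1 at 24 h, Hspa5 (2.7% of all genes called, 1.81% called higher), with 7 at an unadjusted p under 0.05 (12.7%). The interaction of LPS and light called 0 at 4 h by either tool (0.0302%; 4 unadjusted, 6.45%) and 0 at 24 h (0.0527%; 3 unadjusted, 5.29%). The LPS effect at 24 h minus that at 4 h called 0 by either tool (0.617%; 5 unadjusted, 8.19%).

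Among the ER genes, LPS+PBM against PBM at 4 h had a median log2 difference of -0.37. Of the 15, 8 were at an unadjusted p under 0.05, beside 14.2% of all genes, and none was called, beside 2.63% of all genes. All genes tested had a median of -0.16 in that comparison, so values in it lie around a shifted centre. Pdia3 was 281 ± 12.4 against 365 ± 39.5 FPKM (-0.37 ± 0.11, adjusted p = 0.0998), and Hsp90b1 was 275 ± 27.7 against 369 ± 15.6 FPKM (-0.43 ± 0.14, adjusted p = 0.135). At 24 h the ER median was 0.23 in that contrast and 0.18 in LPS against Control, beside -0.08 and -0.05 over all genes. Among heat shock genes at 24 h, Cryab differed by -0.62 ± 0.18 in LPS+PBM against PBM (adjusted p = 0.0742) and -0.41 ± 0.18 in LPS against Control (adjusted p = 0.314). Beside it, the astrocyte markers summed to 179 ± 26.8 FPKM in LPS and 354 ± 56.2 in Control at 24 h, and their part in the Cryab values was not tested.

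In the ATF4 arm no gene was called in any of the 17 comparisons with the settings used throughout, and the levels were low to moderate. Atf4, the transcription factor, had 4 h values of Control 51.9, 114, 46.2 and 125, PBM 66.3, 53.2, 121 and 52.4, LPS 79.0, 89.5, 87.1 and 107, LPS+PBM 138, 86.3, 60.0 and 138 FPKM. Its 24 h values were Control 83.5, 113, 78.2 and 57.6, PBM 93.2, 86.3, 59.5 and 80.9, LPS 124, 96.2, 106 and 148, LPS+PBM 132, 105, 129.5 and 100.3 FPKM. LPS+PBM lay above PBM at 24 h without overlap, by 0.55 ± 0.22 (limma adjusted p = 0.266), and LPS against Control differed by 0.53 ± 0.22 (adjusted p = 0.285). Ddit3, which encodes CHOP, had group means from 39.1 to 66.7 FPKM, and single libraries ranged from 12.4 to 115 FPKM. Its 95% interval for PBM against Control at 24 h ran from -0.91 to 1.06.

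Ppp1r15a (chromosome 7, 45522916 to 45526268, minus strand) encodes GADD34, the phosphatase subunit that reverses eIF2 phosphorylation. Its 4 h values were Control 51.2, 112, 62.0 and 111, PBM 36.0, 34.5, 35.0 and 32.8, LPS 114, 49.2, 29.7 and 71.8, LPS+PBM 156, 47.9, 58.4 and 73.9 FPKM. Its 24 h values were Control 70.4, 36.0, 64.3 and 89.1, PBM 51.3, 36.3, 25.6 and 22.5, LPS 60.6, 49.5, 44.1 and 44.4, LPS+PBM 67.8, 84.6, 76.9 and 56.0 FPKM. All 4 PBM libraries lay below all 4 Control libraries at 4 h, and the groups overlapped at 24 h. The differences were -1.18 ± 0.39 at 4 h and -0.92 ± 0.30 at 24 h, neither of them called (limma adjusted p = 0.759 and 0.597). LPS+PBM against PBM differed by 1.11 ± 0.30 at 24 h (adjusted p = 0.0523) and 1.10 ± 0.39 at 4 h (adjusted p = 0.176).

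The immediate early genes, which respond to handling and to growth signals within minutes, were also lower in PBM than in Control. The 10 on the list (Fos, Fosb, Jun, Junb, Egr1, Egr2, Ier2, Nr4a1, Atf3 and Dusp1) summed to 1053 to 1346 FPKM in Control and 649 to 713 in PBM at 4 h, and to 1131 to 1442 and 249.8 to 388 at 24 h. Of the 10, 2 were called lower in PBM at 4 h and 6 at 24 h. In LPS+PBM the sum was 865 to 1232 FPKM at 24 h, and 8 of 10 were called higher than in PBM. At 4 h the sum in LPS+PBM was 821 to 1060 FPKM, with 3 of 10 called higher than in PBM. Ppp1r15a in LPS+PBM also lay above PBM at 4 h without overlap, though it was not called. In LPS at 4 h the sum was 636 to 785 FPKM, with Fos, Nr4a1 and Ier2 called lower than in Control, while Ppp1r15a in LPS overlapped with Control at -0.43 ± 0.39 (limma adjusted p = 0.722). Between the times in PBM 7 of the 10 were called lower at 24 h, and Ppp1r15a differed by -0.10 ± 0.36 (adjusted p = 1). None of the 10 was at 0 in all libraries. The part of handling or of these genes in the Ppp1r15a values was not tested. Tulp2 overlaps Ppp1r15a on the other strand over 717 bases.

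**Figure D5:**
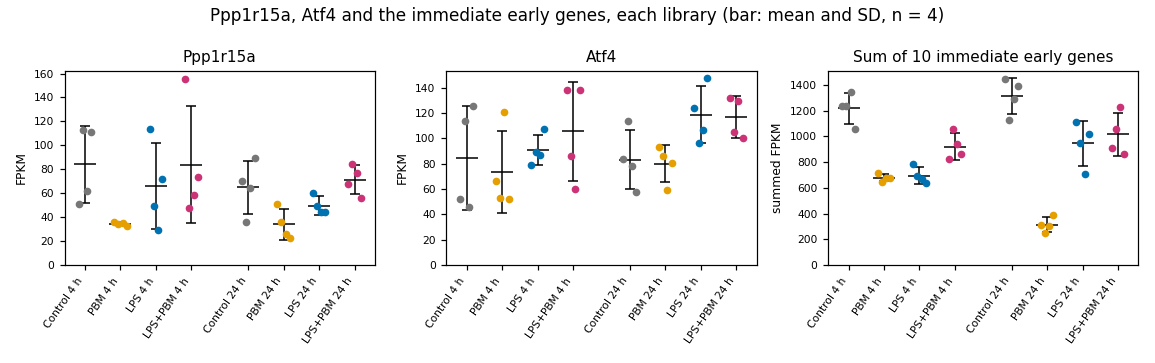
FPKM of Ppp1r15a and Atf4 and the summed FPKM of 10 immediate early genes in each library (points) of the 8 groups, with the group mean and SD (bar, n = 4). PBM is the lowest group for Ppp1r15a at both times, and the immediate early sum is lowest in PBM at 24 h.

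Phgdh, the first enzyme of serine synthesis, had 4 h values of Control 43.4, 73.0, 97.2 and 118, PBM 117, 63.4, 62.8 and 159, LPS 72.0, 73.4, 129.8 and 114, LPS+PBM 82.6, 116, 46.9 and 48.2 FPKM. Its 24 h values were Control 119.7, 101, 190.4 and 92.9, PBM 62.8, 99.5, 73.5 and 66.3, LPS 55.6, 45.7, 89.6 and 81.1, LPS+PBM 65.3, 55.2, 77.3 and 97.4 FPKM. LPS lay below Control at 24 h without overlap, at a log2 difference of -0.87 ± 0.27 (limma adjusted p = 0.111), and PBM differed from Control by -0.69 ± 0.27 (adjusted p = 0.727). Psat1, the next enzyme of that pathway, and Asns, which makes asparagine, averaged 43.1 and 43.5 FPKM. The stress protein gene Sesn2 averaged 27.0 FPKM, and its difference at 24 h between LPS and Control was -1.10 ± 0.38 (adjusted p = 0.169). Trib3, a pseudokinase gene induced by CHOP and ATF4, averaged 3.81 FPKM and was at 0 in 12 of 32 libraries. Chac1, which encodes a glutathione-degrading enzyme, averaged 6.54 FPKM and was at 0 in 10. At 24 h Trib3 read 3.74, 3.45, 7.40 and 7.55 FPKM in Control and 0, 0, 0 and 3.44 in PBM. PBM thus lay below Control without overlap, with a difference of -2.10 ± 0.74 on the log2(FPKM + 1) scale that was not called (limma adjusted p = 0.64). The Chac1 difference between the times in LPS+PBM was -2.74 ± 1.07 (adjusted p = 0.198).

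Other genes of the same pathways are given here and in the next paragraph, beside these shares of all genes called. LPS against Control called 2.23% at 4 h and 2.56% at 24 h, LPS+PBM against PBM 2.63% and 2.7%, and PBM against Control 0.0453% and 0.113%. Light on top of LPS called 0% and 0.00753%. Between the times the shares were 1.11% in Control, 1.05% in PBM, 1.33% in LPS and 3.01% in LPS+PBM. The LPS effect at 24 h minus that at 4 h called 0.617%. Of 37 further ER stress genes, 1 was called higher in LPS against Control at 24 h and 1 in LPS+PBM against PBM at 24 h, in both cases Txndc5, an ER thioredoxin family member, at 0.74 ± 0.14 (limma adjusted p = 0.00549) and 0.78 ± 0.14 (adjusted p = 0.0031). Between the times, Txndc5 was called higher in LPS (0.58) and, with Gfpt1 (1.19), in LPS+PBM (0.64). The 37 genes had a median log2 change between the times of 0.11 in Control, 0.18 in PBM, 0.43 in LPS and 0.48 in LPS+PBM. No other comparison called any of them. Of 44 further heat shock and cytosolic chaperone genes, Serpinh1, the collagen chaperone HSP47 of the ER, rose between the times in LPS (0.82) and LPS+PBM (0.97). Vcp rose in LPS+PBM (0.51), Hspa4 fell in Control (-0.79) and PBM (-0.82), and Hspa4l fell in LPS (-1.79). None of the 44 was called for LPS or light at either time.

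Of the further ATF4 and integrated stress response genes, 42 were tested at 4 h and between the times, and 41 at 24 h. LPS against Control at 4 h called 2 higher, the stress-induced nuclear protein gene Nupr1 (1.20 ± 0.23, limma adjusted p = 0.00489) and Eif2ak2 (1.22 ± 0.29, adjusted p = 0.028), which encodes the interferon-induced eIF2 kinase PKR. LPS+PBM against PBM called Nupr1 higher at 4 h (0.95 ± 0.23, adjusted p = 0.0293), and at 24 h it called Cebpb (1.91) and the cystine transporter Slc7a11 (1.28) higher and Pck2 (-1.75) lower. PBM against Control at 24 h called 1, Atf3, lower (-2.66), which is also on the list of immediate early genes. Between the times Slc7a11 rose in Control, LPS and LPS+PBM (1.27, 1.31 and 1.67), Eif2ak2 in Control and PBM (1.31 and 1.12) and Lars in LPS+PBM (1.12), while Nupr1 fell in PBM (-1.61). The LPS effect on Eif2ak2 was lower at 24 h than at 4 h (-1.67, adjusted p = 0.0281).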

How the data were processed

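RNA of 32 primary mouse astrocyte libraries was reverse transcribed from oligo-dT, amplified by PCR and sequenced, per the labels' protocols. The submitters' processing notes name fastp 0.18.0, Bowtie2 2.2.8, HISAT2, StringTie 1.3.1, RSEM and mm10, with no role. The values are FPKM per gene, deposited by the authors with 2 decimals in 1 table. Which tool computed them is not given in the sources used here. Fragment depth was inferred from the steps of genes with 1 transcript, where 92.28% of 23614 values of up to 20 fragments came out whole within 0.05 fragment.

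A gene was tested if any fitted group averaged 1 FPKM or more. The test was limma 3.58.1 (R 4.3.3, trend and robust) on log2(FPKM + 1), 16 libraries for each time and 32 between times. The procedure was also run on simulated data, for LPS against Control at 24 h with changes in abundant genes only. That run does not cover the comparisons between the times or genes at low levels. Coordinates and overlaps come from GENCODE M21, promoters from RefSeq. The 16 members given in every library are those called in any comparison and the 3 most abundant of each arm, and other pathway genes are named where called, up to 4 per list and comparison. The members and lists were chosen with earlier results of these data known. Alternatives were a pseudocount of 0.1, no filter, quantile normalization, a replicate block, library weights, limma-voom on inferred fragments, only the compared groups, each library left out, and, added after seeing the data, 6 libraries listed out of group order left out.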

Additional observations from a re-analysis of the deposited data

Results flagged for a closer look

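The 16 genes given in every library were examined group by group, which made 128 groups of 4, and 5 groups held 1 library far from the other 3. Chance alone marks about 1 in 20 groups. Hspb1 was at 41.5 FPKM in Control 24 h replicate 3, under the other 3 at 67.2 to 69.7 FPKM. Calr was at 355.9 FPKM in LPS 4 h replicate 4, under the others at 378.5 to 380.8 FPKM. Pdia4 reached 182.8 FPKM in LPS+PBM 24 h replicate 2, above the others at 147.5 to 151.3 FPKM. Sdf2l1 was at 13.6 FPKM in LPS+PBM 24 h replicate 1, under the others at 25.1 to 26.2 FPKM. Hyou1 was at 108.0 FPKM in PBM 24 h replicate 4, above the others at 72.1 to 76.5 FPKM.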

How the results depend on the processing

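No member called changed direction under any alternative. Single called members kept their call in 144 of 176 repeats that left out 1 library and in 154 of 176 others. The count for LPS+PBM against PBM at 24 h, 1 gene, was 2 with quantile normalization (Cryab and Hsph1, without Hspa5), with the replicate block (Hspa5 and Cryab) and with library weights (Hspa5 and Ppp1r15a), 0 without the 6 libraries listed out of group order, and 0 to 2 without single libraries (2 without PBM 24 h replicate 1, and 0 without PBM 24 h replicate 2 or LPS+PBM 24 h replicate 2 or 4). The count for LPS+PBM against PBM at 4 h was 0 to 1 without single libraries (1 without LPS+PBM 4 h replicate 3). Between the times, Control (3 genes) gave 1 when only the compared groups were fitted and 1 to 3 without single libraries (1 without Control 4 h replicate 2). PBM (1 gene) gave 2, with Hspa8 added, under quantile normalization, library weights and limma-voom. It gave 0 with only the compared groups and 1 to 3 without single libraries. The 3 came without PBM 4 h replicate 3 (Hspa8 and Hsph1 added) and the 2 without PBM 24 h replicate 3 (Hsph1 added). LPS (6 genes) gave 2 without the 6 libraries listed out of group order, and LPS+PBM (11 genes) gave 7 with only the compared groups. The difference of LPS+PBM from Control in time change gave 0 to 1 without single libraries (1 without Control 24 h replicate 3). The cause of these shifts was not tested. Fits of only the compared groups also held fewer libraries, and the part of that was not tested either. The replicate block called 2, 1, 5 and 11 genes between the times in Control, PBM, LPS and LPS+PBM. Deviations of same-numbered libraries correlated between -0.024 and 0.034 over 48 pairs. Those of differently numbered libraries correlated between -0.039 and 0.04 over 144 pairs. Because counting error at this depth can hide pairing, these values do not decide whether the replicate numbers pair the libraries. Depth limits genes under 20 FPKM, where the median coefficient of variation was 64.3%.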
